A study of Mus musculus with 292 samples.

Results

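The 9 genes described here mark the main neurons of the cerebellum: Gabra6, Cbln1, Cbln3, Zic1, Zic2, En2 and Il16 for granule cells, and Pcp2 and Calb1 for Purkinje cells. They were chosen by name. Their Entrez Gene numbers are 14399, 12404, 56410, 22771, 22772, 13799 and 16170 for the granule cell genes, in the order given, and 18545 and 12307 for the Purkinje cell genes. Each was represented by exactly 1 probe of the array, so 9 of 23574 probes and 9 of 10835 named genes are described. Expression was measured in RNA of brain tissue from 292 F2 mice, each on 1 array with 2 colours against a common pool made from all samples. Their grandparents were C57BL/6J and C3H/HeJ mice, inbred strains that had been crossed both ways. Females and males were used, but no label gives the sex or the cross direction of an individual mouse, or the amount of cerebellum in a sample. All animals shared the same diets: chow with 4% fat up to week 8, then 12 weeks of a Western diet (42% fat, 0.15% cholesterol), with death at 20 weeks following a 12 h fast. All mice therefore form a single group without a control, and the questions open to the data are how far each gene varied between brains and whether granule and Purkinje cell genes varied together.

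Granule cells are the small, very numerous excitatory neurons of the cerebellar cortex. Their axons, the parallel fibres, form synapses on the dendrites of Purkinje cells, the large inhibitory neurons that carry the output of the cortex. Cerebellins released from parallel fibres hold these synapses together by bridging neurexins on the granule cell side and the delta-2 glutamate receptor on the Purkinje cell side. In brain tissue as a whole, a shift in such a marker can come from fewer cells of a type or from less RNA per cell, which cannot be told apart here.

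Promoters are shown for the genes on which the comparison of granule with Purkinje cells turns, Gabra6, Cbln3 and Pcp2. Of the 9 genes, 5 had an entry in the RefSeq promoter table (build GRCm38.p6), which covers 250 bases before to 50 bases after a transcription start. Capitals mark TTGGCA or its reverse complement TGCCAA, the core motif of nuclear factor I proteins, which are known to bind the Gabra6 promoter in granule cells. In the Pcp2 promoter capitals mark AGGTCA, the core motif of the Purkinje cell nuclear receptor ROR-alpha. Both strands were searched.
Gabra6, chr11:42321023-42321322, minus strand: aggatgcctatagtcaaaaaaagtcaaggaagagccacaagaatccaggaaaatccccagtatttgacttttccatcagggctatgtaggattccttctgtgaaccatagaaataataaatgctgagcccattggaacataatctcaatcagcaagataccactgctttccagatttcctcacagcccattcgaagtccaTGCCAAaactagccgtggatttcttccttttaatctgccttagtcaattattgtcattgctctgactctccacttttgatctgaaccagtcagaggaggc
Cbln3, chr14:55884207-55884506, minus strand: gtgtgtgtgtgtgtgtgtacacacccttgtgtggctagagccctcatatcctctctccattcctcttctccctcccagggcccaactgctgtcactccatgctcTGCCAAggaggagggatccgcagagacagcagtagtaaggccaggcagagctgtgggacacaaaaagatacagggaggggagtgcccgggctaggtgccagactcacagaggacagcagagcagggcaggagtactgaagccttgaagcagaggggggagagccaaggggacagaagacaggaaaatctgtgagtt
Pcp2, chr8:3625498-3625797, minus strand: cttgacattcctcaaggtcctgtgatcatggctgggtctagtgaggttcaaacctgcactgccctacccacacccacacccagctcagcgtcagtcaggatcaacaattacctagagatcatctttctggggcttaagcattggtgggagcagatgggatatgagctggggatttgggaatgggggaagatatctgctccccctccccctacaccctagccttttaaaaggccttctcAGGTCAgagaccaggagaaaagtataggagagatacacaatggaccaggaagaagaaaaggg
The nuclear factor I motif stood at -50 in Gabra6 and at -146 in Cbln3, and no such letters were found in the windows of Pcp2, Zic1 and Il16. The ROR motif stood at -12 in the Pcp2 window shown, 1 of 4 RefSeq starts of that gene, and in 2 of the other 3. The windows overlap: at -87 in 1 of these it is the same site as in the window shown, and at -26 in the other it is a separate site. It also stood at -145 in 1 of 3 windows of the granule cell gene Il16, and was absent from the windows of Gabra6, Cbln3 and Zic1. Of 32851 promoters in the table, 14.1% held the nuclear factor I motif and 16.3% held the ROR motif, so these matches are a description of the letters only. The 2 granule cell promoters differed in base composition, with 42% G and C in Gabra6 and 57% in Cbln3, while that of Zic1 held 65.3% and 31 CpG pairs.

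Values are taken as log10 ratios to the pool, so a value of 0 means equal to the pool. Neither the log base nor the direction is stated in the labels. The ratio was taken as mouse over pool because, of the 235 probes with the widest spread, 66% had a mean linear ratio nearer 1 in that direction. Since 3.35% of array pairs correlated below -0.3 over all probes, the direction is not settled. With the sign turned on all arrays, each mouse called low here would be high by the same fold. Every correlation would stay as given, while lowest and highest values, and genes below and above the pool, would change places. With the sign turned on some arrays only, the correlations would change too, which was not tested. A ratio to a pool of the same brains does not show whether a marker is present or absent.

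Gabra6, the alpha-6 subunit of GABA-A receptors, was the most variable of the 9 genes across all mice, though within batch C, described below, Zic1 had the wider SD (0.0751, against 0.0611 for Gabra6). It stood at -1.51 in mouse 78 and -1.19 in mouse 108, against a lowest value of -0.383, a median of 0.0576 and a highest of 0.249 in the other 290 mice. These 2 brains thus lay 32.6-fold and 15.7-fold below the pool, far outside the range of all others. Its SD across all mice was 0.15, or 1.41-fold, which is above that of 98% of all probes, and 0.0946 without these 2 mice.

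The other granule cell genes were lowest in the same 2 mice. En2, a homeobox factor that patterns the midbrain and hindbrain, stood at -0.977 in mouse 78 and -0.841 in mouse 108, against -0.411 to 0.147 with a median of -0.0442 in the other 290. Il16, whose long precursor is found in granule cells, stood at -0.758 and -0.628, against -0.299 to 0.174 with a median of -0.00444. Cbln1, the granule cell cerebellin that organises the parallel fibre synapse, stood at -0.61 and -0.648, against -0.285 to 0.149 with a median of -0.0315. All 3 genes had a gap between these 2 mice and the rest of at least 0.325 on the log10 scale.

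Zic1 and Zic2 encode zinc finger factors of granule cells and their precursors, and Cbln3 encodes a cerebellin that assembles with Cbln1. Zic1 stood at -0.571 in mouse 78 and -0.438 in mouse 108, against -0.25 to 0.223 with a median of -0.044 in the other 290. Zic2 stood at -0.191 and -0.18, against -0.145 to 0.138 with a median of -0.0135. Cbln3 stood at -0.189 and -0.229, against -0.126 to 0.1 with a median of -0.000951. In Zic2 and Cbln3 the 2 mice were the lowest as well, but by small gaps of 0.0346 and 0.0634.

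The Purkinje cell genes had the same 2 lowest mice. Pcp2, a modulator of G proteins known as L7, stood at -0.391 in mouse 78 and -0.443 in mouse 108, against -0.151 to 0.155 with a median of -0.0147 in the other 290. Calb1, the calcium buffer calbindin, stood at -0.294 and -0.247, against -0.231 to 0.118 with a median of 0.0237. For Calb1 the next mouse, number 126, lay only 0.0154 above mouse 108. Calbindin is also made by many forebrain neurons, whereas Pcp2 is largely restricted to Purkinje cells.

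**Figure D1:**
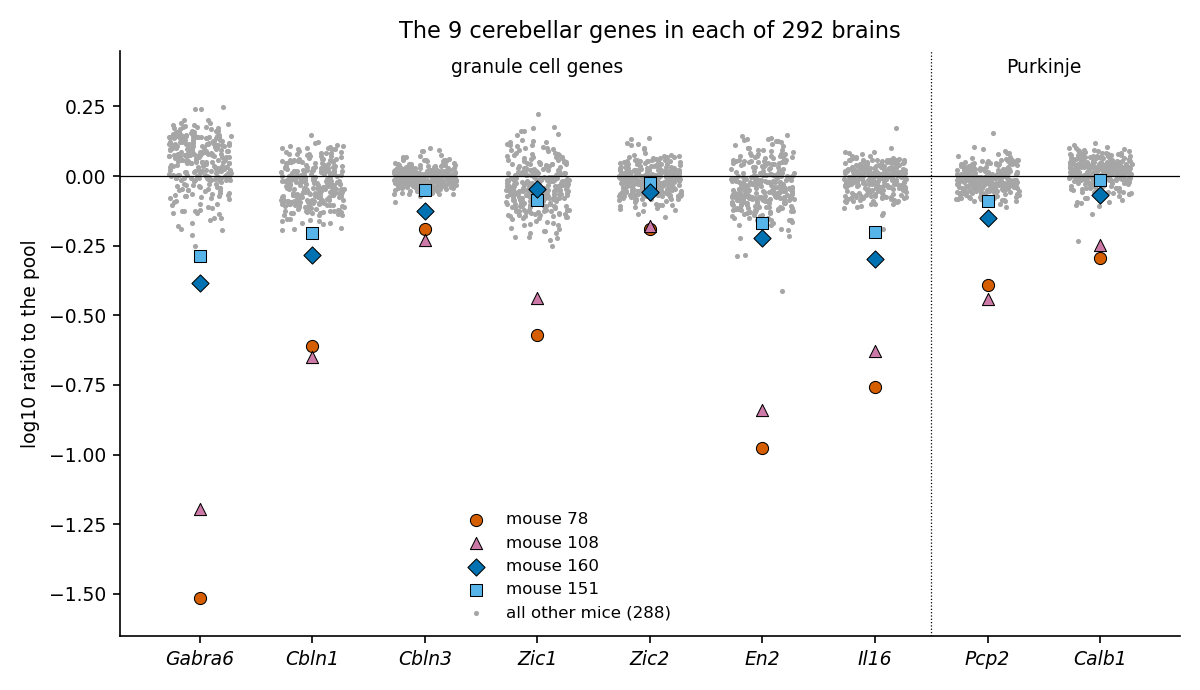
Log10 ratio to the pool (y axis) of each of the 9 genes (x axis) in every mouse, 1 point per mouse, with mice 78, 108, 160 and 151 marked and all other mice in grey. Mice 78 and 108 are the lowest 2 of 292 for all 9 genes, at -1.51 and -1.19 for Gabra6.

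Behind these 2 mice, mice 160 and 151 were the next lowest for several granule cell genes. Gabra6 stood at -0.383 in mouse 160 and -0.285 in mouse 151, the next ranks after mice 78 and 108. Mouse 160 was also the next lowest for Cbln1 (-0.285), Cbln3 (-0.126), Il16 (-0.299) and Pcp2 (-0.151). For Zic1 and Zic2 it stood at -0.0479 and -0.056, well inside the range of the other mice, unlike mice 78 and 108.

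Over all probes used, mice 78 and 108 held the 2 lowest values at 103 of 23549 probes, or 0.437%, of which 73 had a gene name. All 9 cerebellar genes are among them, but the 2 mice had been singled out on these genes, so nothing is read from that. Mice 78 and 108 held the 2 highest values at 10 probes, or 0.0425%. The arrays themselves did not stand apart in spread: their SD over probes was 0.064 and 0.0595, against 0.068 for the median array. Their log ratios correlated with each other at r = 0.385 over all probes, at the 87.5th percentile of all pairs of arrays. The 2 mice belonged to different batches, described below.

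Genes of other cerebellar cells were low in the same brains. The genes named in this paragraph were picked out after their values were seen. Among Purkinje cell genes outside the 9, Ppp1r17 stood at -0.782 in mouse 78 and -0.822 in mouse 108, Homer3, a scaffold of the Purkinje cell spine, at -0.64 and -0.521, and Slc1a6, their glutamate transporter, at -0.409 and -0.387. Of 15 measured Purkinje cell genes, 5 had their 2 lowest values in these mice and 12 were below the pool in both. The share of all probes below the pool in both mice was not counted, so counts of that kind are a description only. Of 14 measured granule cell genes outside the 9, 4 had their 2 lowest values there, among them Chn2 (-0.528 and -0.459) and Pax6 (-0.368 and -0.375), and 12 were below the pool in both. Bergmann glia, the radial astrocytes beside Purkinje cells, were represented by 7 genes, all below the pool in both mice, with Gdf10 at -0.72 and -0.583. Eomes, a factor of unipolar brush cells and of olfactory bulb neurons, stood at -0.866 and -0.425. Its list of 6 interneuron and unipolar brush cell genes had 2 genes lowest in both mice and medians of 0.00571 and 0.0185, so most of it lay near the pool.

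By their medians, marker lists of other regions and cells lay closer to the pool than the granule cell, Purkinje cell and Bergmann glia lists. Outside the 9 genes, the granule cell list had medians of -0.142 in mouse 78 and -0.0927 in mouse 108. Those of the Purkinje cell list were -0.119 and -0.138, and those of Bergmann glia -0.171 and -0.164. In mouse 108 the erythrocyte median came near that of the granule cell list. The median of the 9 lists of other regions and cells ran from -0.0674 (choroid plexus) to 0.102 (erythrocyte) in mouse 78 and from -0.0804 (erythrocyte) to 0.0704 (thalamic) in mouse 108. None of 6 cortical and hippocampal, 7 striatal, 7 thalamic, 7 hypothalamic peptide, 9 myelin, 8 leptomeningeal, 7 choroid plexus and 4 erythrocyte genes had its 2 lowest values in these mice. In the olfactory bulb list 2 of 9 genes did, Eomes and Reln, and both are also expressed in the cerebellum. Tbr1, a factor of deep cortical neurons, had its 2 highest values there, at 0.155 in mouse 78 and 0.181 in mouse 108. The position genes of the midbrain and hindbrain had medians of -0.00964 and -0.00839, and none of 14 was lowest in both. Of these 14 genes, 8 were below the pool in both mice, as were 5 of 7 choroid plexus genes. The same held for 3 of 7 thalamic, 3 of 9 olfactory bulb and 2 of 9 myelin genes. It held for 1 gene each of the cortical and hippocampal, hypothalamic peptide and leptomeningeal lists, and for 0 striatal and 0 erythrocyte genes. The part of these other cell types in the values of the 9 genes was not tested.

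**Figure D2:**
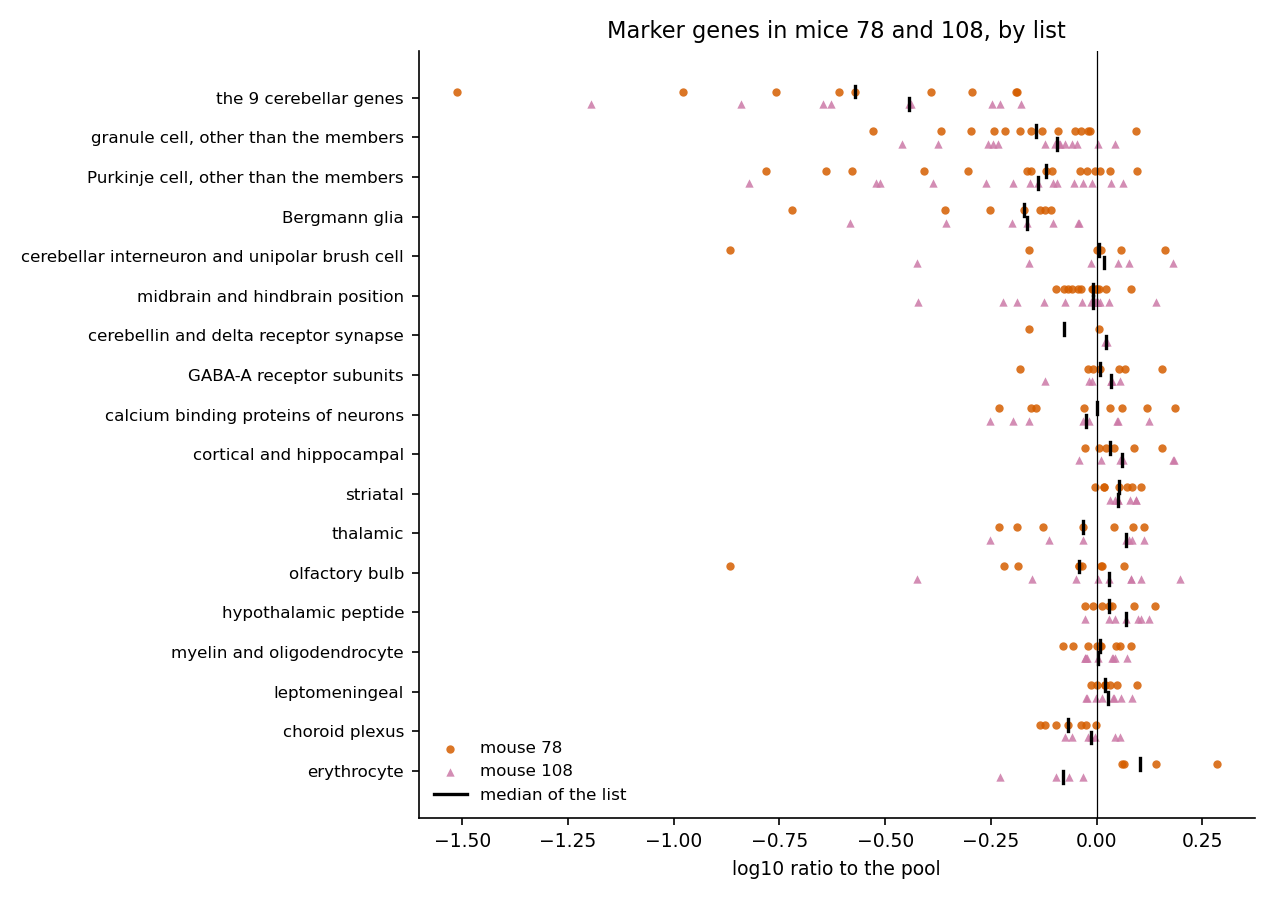
Log10 ratio to the pool (x axis) of every measured gene of the 9 genes and of 17 marker lists (rows) in mouse 78 (circles) and mouse 108 (triangles), with black bars at list medians. The granule cell, Purkinje cell and Bergmann glia lists have medians from -0.171 to -0.0927. Medians of the 9 lists of other regions and cells run from -0.0674 to 0.102 in mouse 78 and from -0.0804 to 0.0704 in mouse 108.

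Whether the 9 genes varied together was examined by fitting every probe on each of them with limma, with Benjamini-Hochberg adjustment over 23548 probes. Over all 292 mice, 33 of 36 pairs were called with a correlation above 0 at an adjusted p under 0.05, and none with one below 0. In the same 9 fits 22.1% of all probes were called with a positive slope. The 3 pairs not called joined Calb1 with Cbln1, Cbln3 and Zic2. Without mice 78 and 108 the picture split: 23 pairs were called above 0 (27.3% of all probes), 7 below 0 (26.0% of all probes) and 6 were not called. The median r of the 36 pairs was 0.475 over all mice and 0.234 without these 2. The 2 mice farthest from the median were mice 78 and 108 for each of the 9 genes.

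Gabra6 showed the strongest dependence on these 2 brains. Over all mice its fit called all 8 partners positive, against 22.8% of all probes, with Il16 highest among granule cell genes (r = 0.637, adjusted p = 9.58e-32 by limma). Spearman's rank correlation of the same pair was 0.00177 with a permutation p of 0.98. Without mice 78 and 108 only Il16 (r = 0.142) and Calb1 were called positive with Gabra6, against 28.2% of all probes. Cbln1 (r = -0.165), Zic1 (r = -0.219) and Pcp2 (r = -0.239) were called negative, against 38.5% of all probes. Leaving out mouse 78 alone left 6 of 8 called positive (25.5% of all probes), and leaving out mouse 108 alone also left 6 (24.2% of all probes). With batch as a covariate and without both mice, 6 of 8 were again called positive, against 26.2% of all probes, led by En2 and Calb1 (r = 0.324 each), and none negative. The direction of Gabra6 with Cbln1, Zic2 and En2 thus depended both on these 2 animals and on batch, and its relation with Pcp2 and Zic1 passed the threshold in the positive direction only with at least 1 of them included.

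For Gabra6 with Cbln3 r was 0.417 over all mice (permutation p = 1e-05, the smallest that 100000 permutations can give). Without mice 78 and 108 it was 0.104 (permutation p = 0.079, adjusted p = 0.111 by limma). Spearman's rank correlation was -0.00173 over all mice (permutation p = 0.98). Gabra6 with Zic2 gave r = 0.202 over all mice and -0.0242 without the 2, and Gabra6 with En2 gave 0.482 and -0.0711. Neither pair passed the threshold without mice 78 and 108 (limma adjusted p = 0.733 for Zic2 and 0.283 for En2).

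Other granule cell pairs were called above 0 with and without the 2 mice, but several held only in some batches. Cbln1 and Il16 correlated at r = 0.746 over all mice and 0.592 without the 2 (rank correlation 0.6 and 0.592), and the r within batches, again without these mice, was 0.608 in C, 0.624 in B and 0.497 in A. Cbln1 and En2 gave 0.726 and 0.569 (rank correlation 0.617 and 0.609), with 0.249 in batch C, 0.351 in B and 0.657 in A. Zic1 and Zic2, related factors on different chromosomes, gave 0.617 and 0.574 (rank correlation 0.575 and 0.567), with 0.7 in batch C, 0.298 in B and 0.455 in A. These 3 pairs had a permutation p of 1e-05 for r and for the rank correlation in both sets of mice, the smallest possible. Their limma adjusted p without the 2 mice was 5.26e-27 for Cbln1 with Il16, 8.46e-25 for Cbln1 with En2 and 9.52e-25 for Zic1 with Zic2. Among the 21 granule cell pairs, 21 were called above 0 over all mice, and without the 2 mice 16 were called above 0 and 2 below 0, both with Gabra6. Within batch C only 7 of the 21 were called above 0 (19.2% of all probes in the fits on these 7 genes) and 1 below 0 (19.5%). There Cbln1 had r = 0.053 with Cbln3, -0.0594 with Zic1 and -0.231 with Zic2, and Zic1 had 0.0152 with En2.

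**Figure D3:**
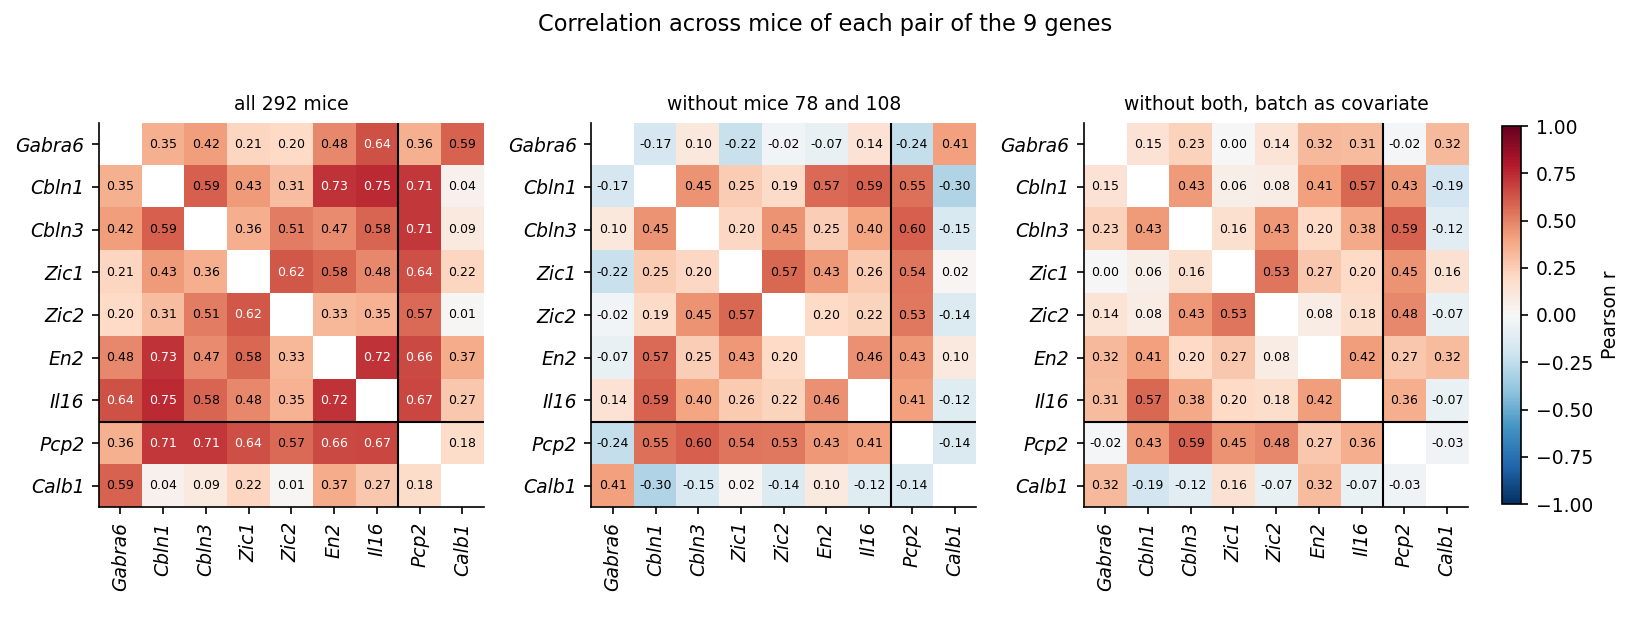
Pearson r across mice of each pair of the 9 genes (rows and columns, colour scale from -1 to 1) over all mice, without mice 78 and 108, and without both with batch as a covariate; black lines part granule from Purkinje cell genes. The Gabra6 row is positive throughout in the left panel and runs from -0.24 to 0.41 in the middle one, while the Pcp2 row stays positive with 6 granule cell genes.

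Pooled over batches, Pcp2, although a Purkinje cell gene, followed the granule cell genes other than Gabra6. Its fit called all 8 partners positive over all mice (28.2% of all probes). Without mice 78 and 108 it called the 6 granule cell genes other than Gabra6 positive (34.5% of all probes), and Gabra6 and Calb1 negative (28.2% of all probes). With batch as a covariate in addition, the same 6 were positive (26.4% of all probes) and none was negative. The highest of these was Cbln3, at r = 0.706 over all mice and 0.597 without the 2 (rank correlation 0.581 and 0.573, permutation p = 1e-05 for each, adjusted p = 6.2e-26 without the 2 by limma). It held within each batch, at 0.512 in C, 0.59 in B and 0.66 in A. Without the 2 mice Pcp2 also correlated with Cbln1 at 0.55, Zic1 at 0.539, Zic2 at 0.527, En2 at 0.434 and Il16 at 0.41. Not all of these held within batches. In batch C the fit on Pcp2 called 3 of 8 partners positive, against 23.2% of all probes. There r was 0.512 with Zic1 and 0.492 with Zic2, but 0.00182 with Cbln1, -0.102 with En2 and 0.123 with Il16.

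Calb1, the other Purkinje cell gene, did not follow Pcp2. The pair had r = 0.182 over all mice (Spearman's rank correlation -0.157) and -0.144 without mice 78 and 108 (permutation p = 0.014, adjusted p = 0.0237 by limma), and -0.0316 with batch as a covariate. Pooled over batches, Calb1 correlated best with Gabra6, at r = 0.588 over all mice and 0.414 without the 2 (rank correlation 0.455 and 0.443, permutation p = 1e-05 for each). Within batches, without these mice, Calb1 and Gabra6 gave r = 0.566 in C, 0.0482 in B and 0.371 in A. Calb1 with En2 gave 0.164 in C, 0.41 in B and 0.426 in A, and Calb1 with Zic1 gave -0.135 in C, 0.391 in B and 0.413 in A, so that Gabra6 came first in C and not in B or A. Without the 2 mice Calb1 ran against Cbln1 (r = -0.298, adjusted p = 8.1e-07 by limma).

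The question of class, whether a gene followed its own cell type more than the other, was tested by the difference between 2 correlations that share a gene, for 4 such differences with adjustment over the 4. Calb1 with Pcp2 minus Calb1 with Gabra6 was -0.406 over all mice (adjusted p = 4e-05, permutation test) and -0.559 without mice 78 and 108 (adjusted p = 2e-05), so Calb1 went with the granule cell gene. Gabra6 with Cbln3 minus Gabra6 with Calb1 was -0.171 (adjusted p = 0.0122) and -0.311 (adjusted p = 0.00032), again in favour of the gene of the other class, but with batch as a covariate it was -0.034 over all mice and -0.0955 without the 2, and neither passed the threshold. Gabra6 with Cbln3 minus Gabra6 with Pcp2 did not pass over all mice (0.0584, adjusted p = 0.533, permutation test). Without the 2 mice it was 0.342 (adjusted p = 2e-05), in favour of the gene of its own class. With batch as a covariate it was -0.0306 over all mice, which did not pass, and 0.244 without the 2 (adjusted p = 4e-05). Within batch C, which holds neither mouse, it was 0.0102 (adjusted p = 0.901). In A and B without these mice, r of Gabra6 was 0.417 and 0.254 with Cbln3, and 0.107 and -0.0587 with Pcp2. Those 2 differences were not tested. Cbln3 was the only granule cell partner of Gabra6 tested in this way. Without the 2 mice r with Gabra6 was 0.142 for Il16, 0.104 for Cbln3, -0.0242 for Zic2 and -0.0711 for En2. It was -0.165 for Cbln1 and -0.219 for Zic1, near the -0.239 for Pcp2, so the difference depends on the granule cell gene chosen. Pcp2 with Calb1 minus Pcp2 with Gabra6 passed in neither set, at -0.177 (adjusted p = 0.435) and 0.0945 (adjusted p = 0.195). Calb1 thus followed Gabra6 more closely than Pcp2 in both sets of mice, and with batch as a covariate without the 2 mice the difference was -0.356 (adjusted p = 0.00044). Within batches A and B it did not pass the threshold, at -0.13 and -0.12 with all their mice, and within C it was -0.742 (adjusted p = 4e-05).

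**Figure D4:**
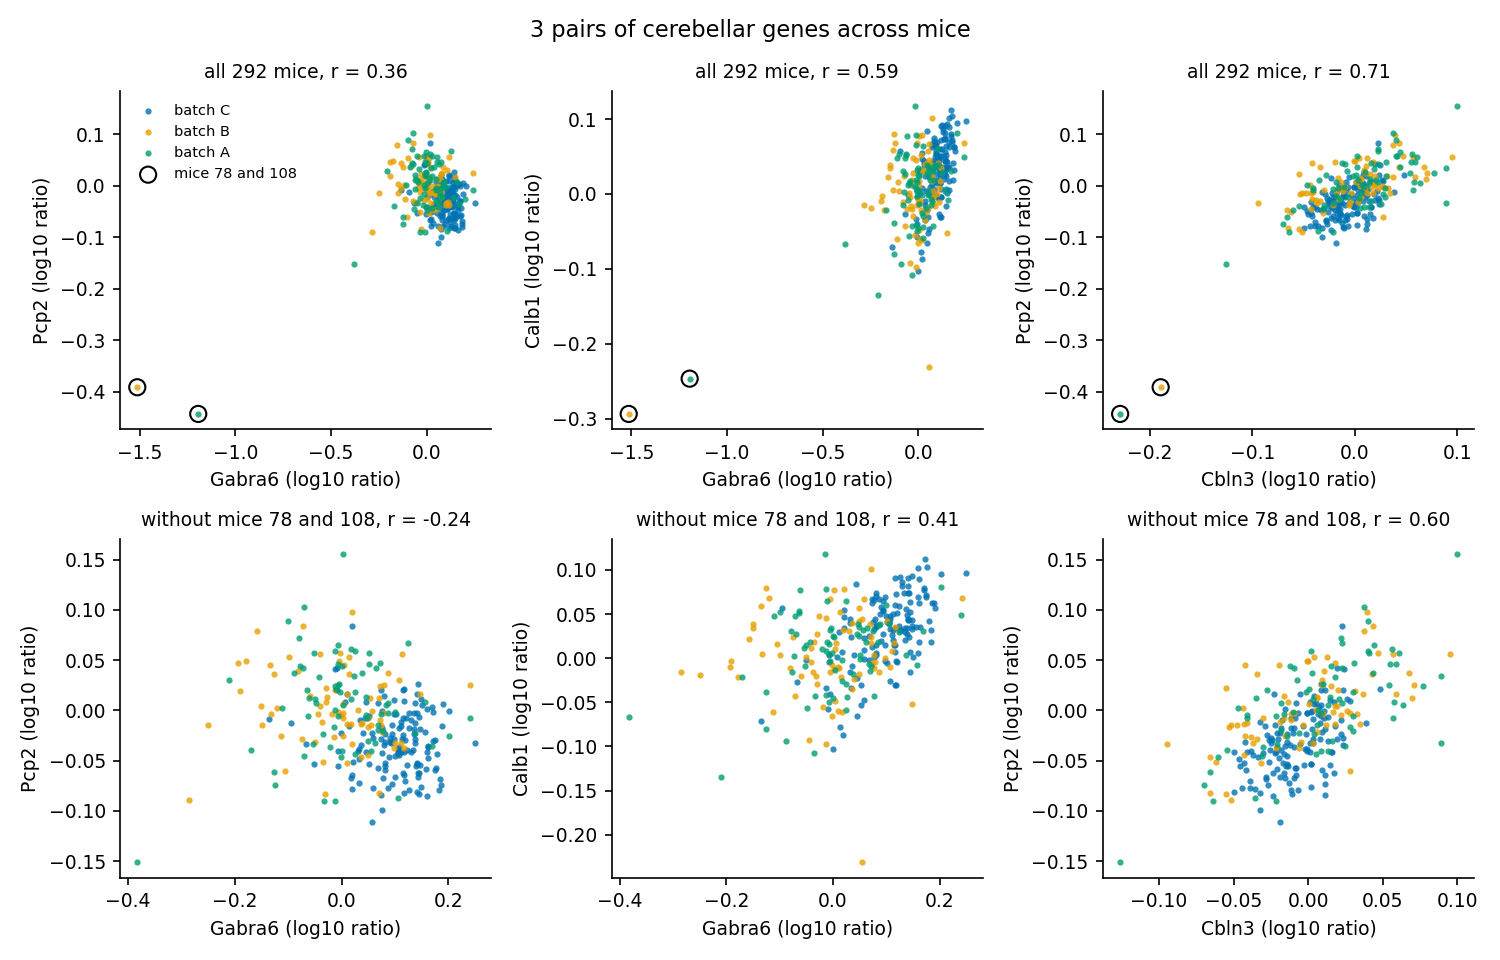
Log10 ratios of 3 pairs of genes, Pcp2 against Gabra6, Calb1 against Gabra6 and Pcp2 against Cbln3 (columns), with each point a mouse coloured by batch, over all mice (top, mice 78 and 108 circled) and without them (bottom). The 2 circled mice lie far from the rest in each top panel, r for Pcp2 with Gabra6 is 0.36 with and -0.24 without them, and r for Pcp2 with Cbln3 is 0.71 and 0.60.

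The arrays fell into 3 batches, found in the data from sets of probes missing on whole groups of arrays, with 141 mice in batch C, 77 in B and 74 in A. The labels name no batch, but the sample descriptions of the 77 mice of batch B differ from all others in the spelling of 1 word. Batch C ran from mouse number 213 to 362, B from 54 to 212 and A from 51 to 196. A difference between C and the other batches thus cannot be told apart from a difference between high and low mouse numbers. Whether the batches differed in sex was not tested. Mouse 78 lay in B, and mouse 108 in A. Between batches, 2 of 9 genes were called by the limma F test with a difference of at least 1.2-fold, Gabra6 and En2, against 8.17% of all probes, and by the F test alone 7 of 9 were, against 64.0% of all probes, and 9 of 9 without mice 78 and 108, again against 64.0%. Batch C set the direction. Without mice 78 and 108, Gabra6 averaged 0.0986 ± 0.0611 in C (SD, 141 mice), -0.0105 ± 0.0946 in B (76 mice) and 0.00258 ± 0.0929 in A (73 mice), so C was 1.25-fold above A (adjusted p = 1.56e-14 by limma). En2 averaged -0.0845 ± 0.0611 in C, 0.0089 ± 0.0733 in B and -6.2e-05 ± 0.0767 in A. Cbln1 (-0.0682 in C, 0.00151 in B, 0.0048 in A) and Zic1 (-0.0707 in C, 0.00129 in B, -0.0118 in A) were lower in C as En2 was, while Calb1 was higher in C, as Gabra6 was, at 0.0308, against 0.00303 in B and 0.00675 in A.

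The 2 genes that were higher in batch C, Gabra6 and Calb1, are those that ran against Cbln1 and Pcp2 without the 2 mice. Within batch C alone, Calb1 had r = -0.342 with Cbln1, which was called, and -0.176 with Pcp2, which was not. With batch as a covariate and without the 2 mice, these were -0.191 and -0.0316. The part of batch in these relations was not tested. Within batch C, where neither extreme mouse lies, Gabra6 had r = -0.0861 with Cbln1, -0.12 with Pcp2 and 0.148 with Zic1, and the fit on Gabra6 called 2 of 8 partners positive, En2 (r = 0.463) and Calb1, against 14.3% of all probes. In batch B without mouse 78 the fit called 2 of 8 positive, near the 22.1% of all probes. In batch A without mouse 108 it called 4 of 8 positive, against 20.0% of all probes. Counts of 2 of 8 are too close to these shares to be read as a result about the 9 genes. The slopes on Gabra6 differed between batches for 2 of 8 partners by limma (11.5% of all probes), Cbln3 with r = -0.109 in C, 0.254 in B and 0.417 in A (adjusted p = 0.00969) and Calb1 (adjusted p = 0.000846). The slopes on Pcp2 differed for 4 of 8 (28.8% of all probes). Of these, Cbln1 gave r = 0.00182 in C, 0.612 in B and 0.737 in A (adjusted p = 5.75e-07), and En2 gave -0.102 in C, 0.279 in B and 0.646 in A (adjusted p = 1.56e-05). Cbln3 (adjusted p = 0.0368) and Il16 (adjusted p = 0.0418) were the other 2, and both correlated with Pcp2 above 0 in every batch.

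**Figure D5:**
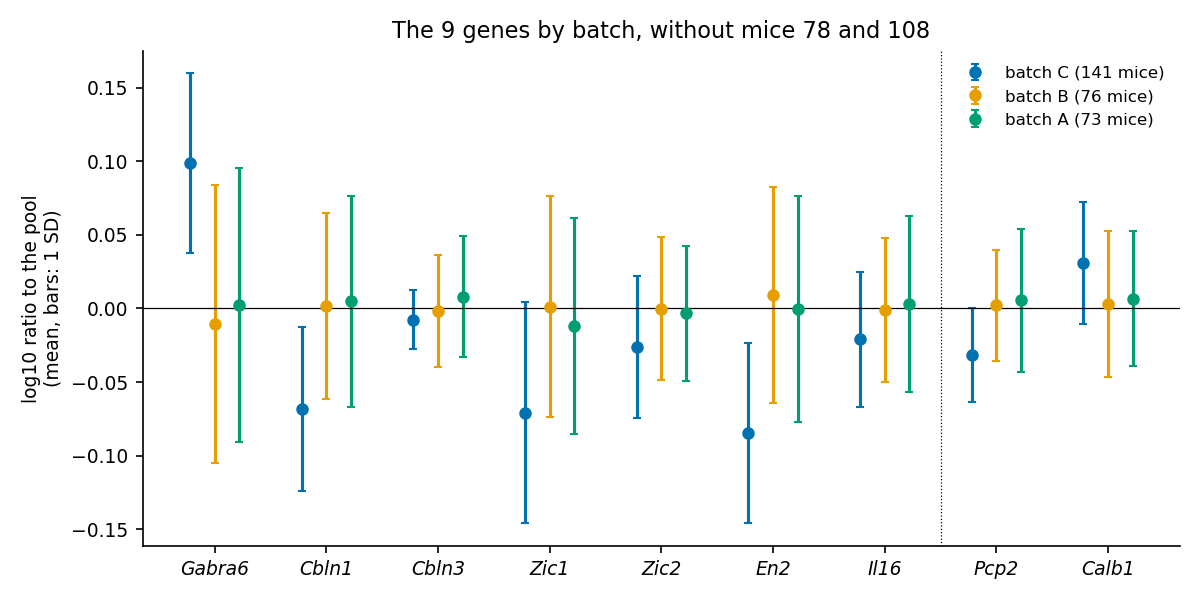
Mean log10 ratio to the pool (y axis) with bars of 1 SD over mice, for the 9 genes (x axis) in batches C, B and A, without mice 78 and 108. Gabra6 and Calb1 lie higher in batch C, at 0.0986 and 0.0308, and the other 7 genes lie lower in C than in A and B.

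Other genes of the same cells were counted in the fits without mice 78 and 108, where 28.2% of all probes were called positive and 38.5% negative with Gabra6, and 34.5% positive and 28.2% negative with Pcp2. The granule cell list of 14 genes had 9 called positive, 4 negative and 1 not called with Gabra6, and 4, 4 and 6 with Pcp2. Only its positive count with Gabra6 lay well above the share of all probes. With Gabra6 the 3 highest over all mice were Chn2, a Rac regulator, at r = 0.806 over all mice and 0.698 without the 2, Pax6, a transcription factor of granule cells, at 0.549 and 0.318, and Zic4 at 0.536 and 0.546. Other granule cell genes ran the other way, with Grin2c at -0.133 and -0.544 and Atoh1, a factor of granule cell precursors, at -0.295 and -0.468. With Pcp2 the highest were Grin2c, the NMDA receptor subunit of mature granule cells, at 0.57 and 0.548, Barhl1 at 0.413 and 0.415, and Gabrd, the delta subunit that joins alpha-6 in extrasynaptic receptors, at 0.325 and 0.261. Gabrd, which is also counted among the receptor subunits below, had r = 0.11 with Gabra6 over all mice and -0.0844 without the 2. The Purkinje cell list of 15 genes had 5 positive, 5 negative and 5 not called with Gabra6, and 6, 5 and 4 with Pcp2. In these fits all lay near the shares of all probes. With batch as a covariate in addition, the counts were 5, 4 and 6 with Gabra6, and 9, 2 and 4 with Pcp2. The 9 of 15 positive with Pcp2 then lay above the 26.4% of all probes. With Pcp2 the leading genes were Homer3 at 0.75 and 0.67, Lhx1 at 0.583 and 0.426, and Pvalb, the calcium buffer parvalbumin, at 0.556 and 0.52. With Gabra6, Ppp1r17 gave 0.687 and 0.234, Slc1a6 gave 0.412 and 0.0961, and Foxp2 gave 0.307 and 0.515, while Homer3 gave 0.0693 and -0.528, Cacna1g gave -0.21 and -0.465 and Pvalb gave -0.0366 and -0.386. Atoh1, and here Homer3, Cacna1g and Pvalb, were added after their values were seen.

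The 7 measured GABA-A receptor subunits other than Gabra6 gave 5 positive and no negative calls with Gabra6 in the same fits (28.2% and 38.5% of all probes), led by Gabrb1 (r = 0.678), Gabrg1 (0.458) and Gabra2 (0.432). With Pcp2 they gave 1 positive and 4 negative calls (34.5% and 28.2% of all probes), with Gabrg1 at -0.594 and Gabrb1 at -0.514. Of the partners of cerebellins at the synapse 2 genes were measured, of which 1 was positive and 1 negative with Gabra6, and 1 positive with Pcp2. Among 8 calcium binding proteins, Calb2, or calretinin, gave r = 0.419 with Gabra6 and -0.0443 with Pcp2 without the 2 mice. The position genes gave none positive and 11 of 14 negative with Gabra6 (38.5% of all probes negative), led by Wnt1 (-0.675), En1 (-0.572) and Irx2 (-0.517), and 10 positive and 1 negative with Pcp2 (34.5% of all probes positive), led by En1 (0.596). With batch as a covariate in addition, 9 of these 14 were negative with Gabra6 (36.5% of all probes) and 5 positive with Pcp2 (26.4%). En1 is the paralog of En2. Lists of other regions and cells differed, against the same shares. Of 7 hypothalamic peptide genes 7 were negative with Gabra6 and 7 positive with Pcp2. Of 9 myelin genes 6 were negative with Gabra6 and 6 positive with Pcp2. Positive and negative calls with Gabra6, then with Pcp2, were 1 and 3, then 5 and 0 for the cortical and hippocampal list. The striatal list gave 2 and 3, then 5 and 1, and the thalamic list 3 and 3, then 3 and 2. The olfactory bulb list gave 2 and 4, then 3 and 3, and the leptomeningeal list 3 and 4, then 4 and 2. The choroid plexus list gave 3 and 1, then 0 and 2, and the erythrocyte list 0 and 2, then 1 and 0. Gabra6 correlated with the first principal component of all probes with an r of size 0.512, a component that held 15.2% of the variance and lay to 54.4% between batches.

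The genes most like Gabra6 and Pcp2 across mice also changed with the 2 brains. Over 292 mice the named genes nearest to Gabra6 by Pearson r were Chn2 (0.806), Crtam (0.806), Ptpn22 (0.8), Smpx (0.779), Il20rb (0.714), Stk17b (0.707), Ppp1r17 (0.687), Patj (0.677), Neb (0.672) and Zfp521 (0.667). Each of these 10 was below the pool in both mice, from -0.271 to -1.23 in mouse 78 and from -0.257 to -1.07 in mouse 108. They were picked by an r on which these 2 mice weigh heavily, so nothing is read from that. Without the 2 mice Stk17b gave 0.757, Ptpn22 0.753 and Neb 0.734, while Il20rb gave 0.354 and Ppp1r17 0.234. The nearest were then Jmjd1c (0.814), Cse1l (0.799), Cdh7 (0.788), Ascc3 (0.787) and 0610010F05Rik (0.786), which stood between -0.053 and 0.0402 in mouse 78 and between -0.111 and 0.0315 in mouse 108. Nearest to Pcp2 over all mice were Homer3 (0.75), Gdf10 (0.699), Pkp3 (0.692), Il22 (0.666), Eps8l2 (0.649), Cdh15 (0.643), Gng13 (0.609), Epha8 (0.596), Chtf18 (0.589) and Col18a1 (0.588), and without the 2 mice Lcat (0.676), Taf10 (0.673), Homer3 (0.67) and Eps8l2 (0.668). For Calb1 the nearest were Ireb2 (0.699 over all mice and 0.753 without the 2) and Kitl (0.667 and 0.706), which were added after their values were seen. The 9 genes themselves ranked among named genes as follows: for Pcp2 over all mice Cbln1 stood at rank 2, Cbln3 at 3 and Il16 at 6, and for Gabra6 Il16 stood at rank 14 and Calb1 at 19. Without the 2 mice these ranks were 178 for Cbln1, 59 for Cbln3 and 1016 for Il16 with Pcp2, and 2868 for Il16 and 1254 for Calb1 with Gabra6.

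Neighbours on the chromosome did not in general follow the 9 genes. The 2 nearest measured named genes on each side gave 36 neighbours in the RefSeq order of GRCm38.p6, with r without mice 78 and 108 from -0.219 to 0.568 and a median of 0.0694. The highest was Pnpla6 beside Pcp2 (r = 0.398 over all mice and 0.568 without the 2), followed by Tmem64 beside Calb1 (0.417 and 0.459) and Nudcd2 near Gabra6 (0.32 and 0.415). Gabrb2, the receptor subunit gene next to Gabra6, gave 0.173 and 0.283. Zic4, which lies next to Zic1, gave -0.0218 and -0.157 with it, and Zic5, next to Zic2, gave 0.095 and 0.0559. In an intercross neighbouring genes are inherited together.

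Whether any of the 9 genes fell into discrete levels, as a single locus of large effect can give in an intercross, was examined last. In Gaussian mixture fits with mclust 0 of 9 were called clustered, against 7.07% of all probes, too close to that share to be read as a result. The count was 0 also without mice 78 and 108, with unequal variances, centred by batch and with scaled arrays. Over all mice the smallest component of Gabra6 held 0.685% of mice, where a call asked for over 5%. Fits that included mice 78 and 108 could thus miss levels among the other mice. Without these 2, Gabra6 had components 2.64 SD apart, where a call asked for over 3, the smaller with 8.95% of mice. Il16 had components 4.7 SD apart, the smaller with 1.09%. The middle 90% of mice spanned 2.02-fold for Gabra6, 1.9-fold for Zic1, 1.81-fold for En2, 1.71-fold for Cbln1 and between 1.28-fold and 1.45-fold for the other 5 genes, each as the ratio of the 95th to the 5th percentile.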

How the data were processed

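The deposited values are log ratios between the mouse (Cy3) and the common pool (Cy5), 1 column per array, and were taken as log10 of mouse over pool; neither base nor direction is stated. Per the labels' protocols the pool held equal portions of RNA from each sample; which image analysis and normalization were applied is not given in the sources used here. Intensities were not analysed here, so signal over background is unknown. The log base was inferred from the limits of the values at -2 and 2. Of 23574 probes, 25 with over 5% missing values were left out and 252 missing values were filled, none in the 9 genes. Correlations were tested with 100000 permutations (two-sided) and with limma 3.58.1 in R 4.3.3 over all remaining probes, with Benjamini-Hochberg adjustment at 0.05; differences of correlations by swapping the partner genes within mice; discrete levels with mclust 6.1.1. Python 3.11.15, numpy 2.4.6, scipy 1.17.1 and pandas 2.3.3 were used. The methods were tested on simulated data. Alternatives covered the mice used, batch, array scaling, ranks and the filter on missing values. Genes named are the 9 members, the 10 named genes nearest to Gabra6 and to Pcp2, the 3 genes of each list with the largest absolute r, and the 2 named neighbours on each side. The members and lists were chosen with earlier results of these data known. Each array is 1 mouse, and technical error was not measured separately.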

Additional observations from a re-analysis of the deposited data

How the results depend on the processing

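No paired analysis was possible because all mice form 1 group. Each gene had 1 probe, so averaging probes was not run separately, and the 2 mice farthest from the median were mice 78 and 108 for every gene. Alternatives involving mice 151 and 160, single extreme mice, batches without them, ranks in the fits, and batch together with the 2 mice left out were chosen after seeing the data. The cause of the changes below was not tested. Of 320 correlations under alternatives, 247 kept direction and side of the threshold, 44 reversed, 27 no longer passed and 2 newly passed; of 44 differences the numbers were 27, 8, 4 and 5.
The number of partners called positive with Gabra6 (8 over all mice) was 2 without mice 78 and 108, 2 in batch C, 3 with array ranks, 1 with ranks across mice, 1 without mice 78, 108, 151 and 160, 4 in batch A without mouse 108 and 2 in batch B without mouse 78. With Pcp2 (8) it was 3 in batch C. The 33 positive pairs became 11 in batch C and 19 in batch B without mouse 78. The 2 genes called between batches became 1 with centred arrays and 1 with scaled arrays, and the median SD in batch C was 0.048.
The difference Gabra6 with Cbln3 minus with Pcp2 was 0.342 without mice 78 and 108, -0.0306 with batch as a covariate, -0.115 in batch B, 0.331 with array ranks, 0.295 with ranks across mice, 0.244 without the 2 mice with batch and 0.367 without all 4 mice. Gabra6 with Cbln3 minus with Calb1 was -0.034 with batch, 0.0301 in batch A, 0.0219 in B and -0.0955 without the 2 mice with batch. Pcp2 with Calb1 minus with Gabra6 was 0.0945 without the 2 mice, 0.132 with array ranks, 0.14 with ranks across mice and 0.166 without the 4. Calb1 with Pcp2 minus with Gabra6 was -0.13 in batch A and -0.12 in B.
Correlations that reversed are given in the order without mice 78 and 108, batch C, array ranks, ranks across mice and without the 4 mice. Gabra6 with Cbln1 gave -0.165, -0.0861, -0.165, -0.27 and -0.275. Pcp2 with Calb1 gave -0.144, -0.176, -0.0367, -0.157 and -0.175, with -0.0316 without the 2 mice with batch and -0.0723 in batch B without mouse 78. Gabra6 with Pcp2 gave -0.239, -0.12, -0.169, -0.297 and -0.34, with -0.0155 and -0.0587 in those further settings. Cbln1 with Calb1 gave -0.298, -0.342, -0.218, -0.294 and -0.34, with -0.191 and -0.22 in the same further settings, -0.109 without mouse 78 and -0.0931 without mouse 108. Without batch C, the same order held -0.219, -0.148, -0.232 and -0.243 for Gabra6 with Zic1, which was -0.09 in batch A without mouse 108 and -0.0857 in B without mouse 78, and -0.0711, -0.117, -0.158 and -0.136 for Gabra6 with En2. Gabra6 with Zic2 was -0.0242 without the 2 mice, -0.0455 with ranks across mice and -0.0433 without the 4. Gabra6 with Cbln3 was -0.109 in batch C and -0.00173 with ranks across mice, and En2 with Pcp2 was -0.102 in batch C.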
